A study of Mus musculus with 6 samples.

Results

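The genes described here are 33 markers of macrophages and other leukocytes, chosen by name and not from the values, as read in RNA from cultured mouse heart and tail fibroblasts. A probe named by its RefSeq accession was found for 32 of the 33, with 38 probes between them. No probe carried an accession of Cd68, the macrophage scavenger receptor macrosialin, so it has no value here. All 32 passed the filter on dim probes, among 20209 features tested when the 6 arrays were grouped by label and 20578 when 4 of them were compared. RNA from each culture was hybridised to an Agilent array in a single colour (Cy3). Every culture came from male C57/Bl6-J mice, recorded as 8 weeks old on the samples and as 8 to 10 weeks in the protocol, with no treatment or genetic change in either group. Chopped hearts or skinned tails were digested with trypsin or collagenase, and the cells that had grown on plates for 5 days were taken as fibroblasts. Each group held 3 cultures, and each culture pooled cells of 2 animals. The labels describe no sorting step, so the cultures are defined by digestion and growth on plastic. No label says whether the same mice gave a heart and a tail culture.

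Macrophages are phagocytes that live in nearly every tissue and are also formed from blood monocytes. Their survival and identity depend on the receptor for colony stimulating factor 1, encoded by Csf1r, and on the transcription factor PU.1, encoded by Spi1. PU.1 binds purine-rich sites near the start of many myeloid genes, several of which lack a TATA box. The heart has resident macrophages between its muscle cells, and macrophages attach to culture plastic, so primary cultures made by plating a digested tissue can hold them beside fibroblasts. In RNA from a whole culture, fewer cells of a type and less RNA per cell cannot be told apart.

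The members' promoter sequences are shown because the regulator of the lineage, Spi1, is itself a member. RefSeq promoter windows on GRCm38.p6 were at hand for 24 of the 33 genes, in 30 windows. The motif GAGGAA, the core of the purine box that PU.1 binds, was searched on both strands in the 250 bases before each start. It was present for 14 of the 24 genes (58.3%), and for 25.9% of all 27025 genes with a window. Within the last 60 bases before the start it was present for 9 of the 24 (37.5%), against 7.02% of all genes. These 9 are given as the last 70 bases before the annotated start on GRCm38.p6, read 5′ to 3′ along the gene. Capitals mark the motif, written as TTCCTC where it lies on the opposite strand.
Cd53 (chr3:106790150-106790219, minus strand): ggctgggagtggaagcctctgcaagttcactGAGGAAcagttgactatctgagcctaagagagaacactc
Laptm5 (chr4:130913246-130913315, plus strand): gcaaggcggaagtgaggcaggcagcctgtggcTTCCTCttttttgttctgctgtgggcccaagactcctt
Mrc1 (chr2:14229344-14229413, plus strand): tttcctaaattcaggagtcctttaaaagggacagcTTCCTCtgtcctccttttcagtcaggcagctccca
Trem2 (chr17:48346331-48346400, plus strand): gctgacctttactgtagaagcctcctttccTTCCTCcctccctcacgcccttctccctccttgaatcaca
Fcgr1 (chr3:96293970-96294039, minus strand): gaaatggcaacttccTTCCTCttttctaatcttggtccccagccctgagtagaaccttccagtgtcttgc
Fcgr3 (chr1:171059395-171059464, minus strand): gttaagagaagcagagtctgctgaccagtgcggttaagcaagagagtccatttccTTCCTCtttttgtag
Aif1 (chr17:35176053-35176122, minus strand): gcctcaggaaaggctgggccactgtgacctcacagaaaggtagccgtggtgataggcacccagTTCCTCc
C1qb (chr4:136886201-136886270, minus strand): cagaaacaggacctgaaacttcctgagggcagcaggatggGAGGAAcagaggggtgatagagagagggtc
Pf4 (chr5:90772365-90772434, plus strand): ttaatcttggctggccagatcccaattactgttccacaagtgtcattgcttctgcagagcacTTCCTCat

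Of these 9 genes, 8 were called higher in the 4-array comparison, and of the 14 measured members with a window but no match so near the start, 9 were. No link between motif and call was tested. A match is a run of letters and was not tested as a binding site. Other motifs searched over the same 250 bases were the interferon response element core (3 of 24 genes, 12.5%, against 3.46% of all genes), the C/EBP-like TTGCNNAA (4 of 24, 16.7%, against 10.8%) and TATAAA (4 of 24, 16.7%, against 14.3%). Within the last 60 bases the interferon core was present for 2 of 24 genes (8.33%, against 0.707% of all genes). TTGCNNAA was present there for 2 of 24 (8.33%, against 2.03%) and TATAAA for 1 of 24 (4.17%, against 4.66%). The lysozyme genes Lyz1 and Lyz2, neighbours on chromosome 10 with no other RefSeq gene starting between them, are shown because they are close copies. Their last 70 bases before the start share 66 bases (94.3%), and capitals mark the 4 that differ.
Lyz1 (chr10:117292869-117292938, minus strand): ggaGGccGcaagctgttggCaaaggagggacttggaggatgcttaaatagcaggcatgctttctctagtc
Lyz2 (chr10:117282273-117282342, minus strand): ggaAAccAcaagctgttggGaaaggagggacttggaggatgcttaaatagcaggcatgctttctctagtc

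Of the 6 arrays, 2 stood apart, and every result below depends on them. On the array labelled heart 2, 99.3% of spots were well above background against 47.3% to 55.2% on the other 5, the median processed signal was 949 against 24.3 to 37.8, and 2748 spots were non-uniform against 0 to 7. The array labelled tail 1 had ordinary scanner values. Over the 23078 probes well above background on all 6 arrays, however, it correlated with heart 1 and heart 3 at r = 0.988 and 0.996. With tail 2 and tail 3 it correlated at r = 0.962 and 0.961. Heart 1, heart 3, tail 2 and tail 3 correlated at 0.987 and 0.996 within their labels and at 0.960 to 0.964 between them. Results are therefore given over all 6 arrays by label and over the 4 arrays heart 1, heart 3, tail 2 and tail 3. Because tail 1 was set aside for where its values lie, the p-values computed over 4 arrays are smaller than they should be, and the cause of its position was not tested. All 13 genes of a fibroblast marker list (such as Thy1, Pdgfra and Col1a1) were well above background on those 4 arrays.

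Levels below are log2 processed signal relative to the 75th percentile of the array's probes, so 0 is the level of a probe brighter than 75% of probes and each unit is a doubling. A level is compared between arrays for the same probe, and not between genes. Of the 32 members, 25 were well above background on all 6 arrays and 26 on both tail 2 and tail 3, and Spi1 was on neither of the latter. None of the member spots was saturated. Most member probes thus gave signal in both kinds of culture. Of all spots, 51.4% on tail 2 and 47.3% on tail 3 were well above background. Which cells gave the members' signal was not tested.

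By label, heart 1 to 3 against tail 1 to 3, none of the 32 members was called different by limma at a Benjamini-Hochberg adjusted p under 0.05, and neither was any of the 20209 features (0%). The smallest adjusted p of a member was 0.725, and 1 member had an unadjusted p under 0.05, against 1.45% of all features with the heart higher at that level. The mean difference was positive for 27 members and negative for 5, whereas 30.6% of all features were positive. The median member was 0.82 higher in the heart arrays on the log2 scale, and the median over all features was -0.35, but with each array scaled to its median these became -0.16 and -1.33. Within the first row of the slide, heart 1 and 2 against tail 1 and 2, the member median was -0.45, and within the second, heart 3 against tail 3, it was 2.66. No member had 3 heart arrays all above the 3 tail arrays, a pattern seen for 2.19% of features.

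Over the 4 arrays, 21 of the 32 members were called higher in heart 1 and 3 than in tail 2 and 3, none was called lower, and 11 were not called. Of all 20578 features, 7.76% were called higher, 6.54% lower and 14.3% in either direction. The difference was positive for 31 members (44.3% of all features), at least 2-fold as fitted for 28 (9% of features) and at least 4-fold for 18. With Spi1, dim on tail 2 and 3, taken at its lower bound, 27 were at least 2-fold. Both heart arrays lay above both tail arrays for 28 members, against 25.9% of features. Ptprc, Cd53, Fcgr1, Fcgr2b, Cybb and Spi1 (6 of 32) were not well above background on both tail 2 and tail 3. They passed the filter only through the heart arrays, so their difference was partly set by the filter. All 6 are among these 28, and Ptprc, Cd53 and Fcgr2b are among the 21 calls. The median member difference was 2.26 on the log2 scale, and the median over all features was -0.063. Within the first row of the slide (heart 1 minus tail 2) the member median was 1.72, with 28 members positive, and within the second row (heart 3 minus tail 3) it was 2.66, with 32 positive. The call count rests on single arrays: it was 10 without heart 3, 11 without tail 3, 19 without heart 1 and 22 without tail 2.

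**Figure D1:**
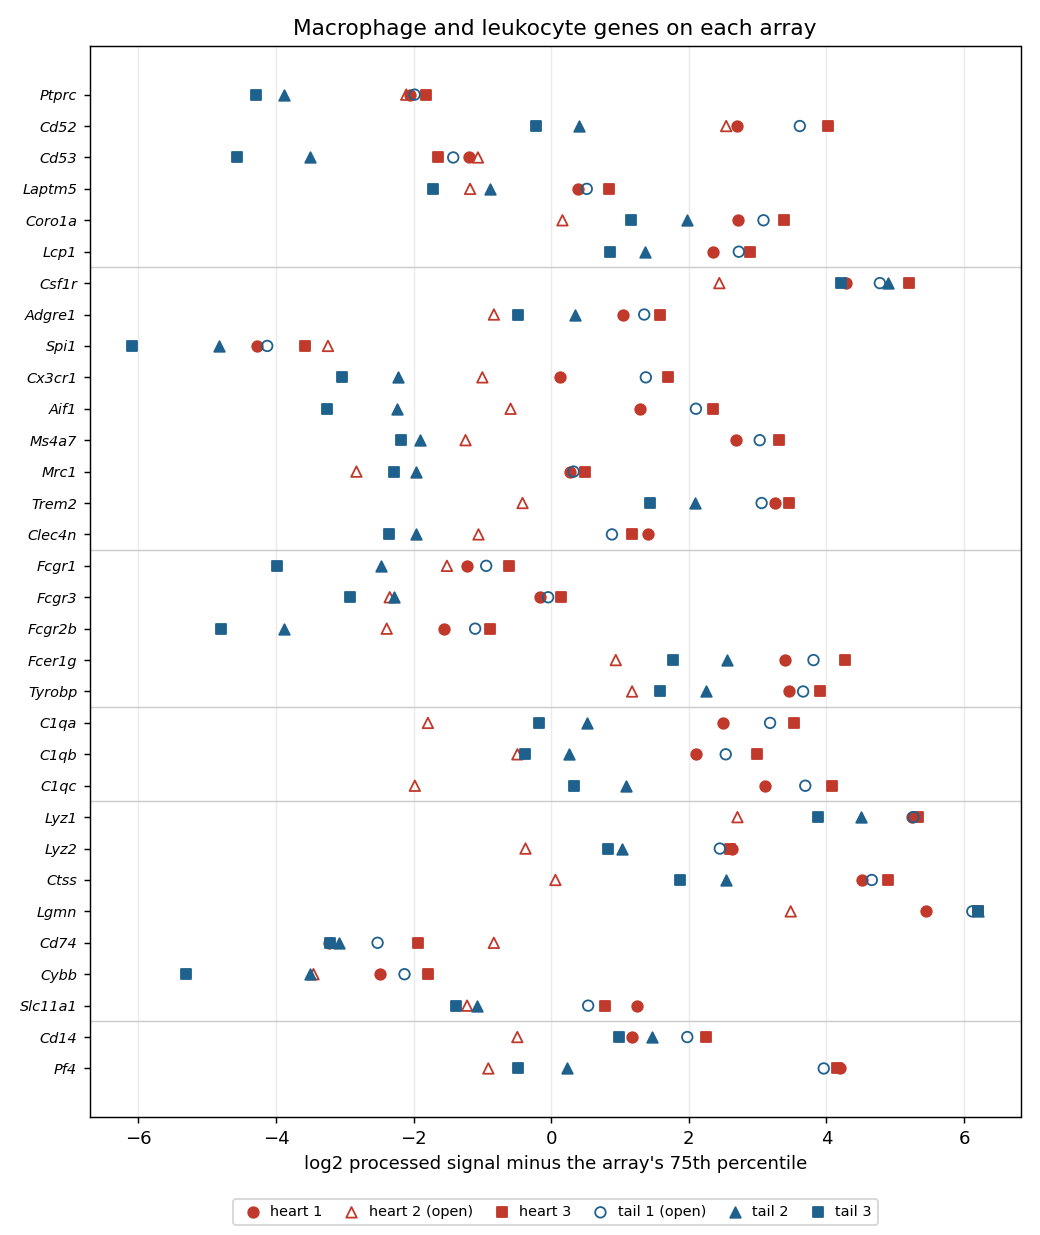
Level of each of the 32 members on each of the 6 arrays (log2 processed signal minus the array's 75th percentile, horizontal axis), with 1 gene per row and lines between the roles. Tail 1 lies between heart 1 and heart 3 for 27 members, tail 2 and tail 3 both lie below heart 1 and heart 3 for 28, and heart 2 is the lowest array for 16 of the 31 members it measured. The summed signal of the fibroblast list was also lowest on heart 2.

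Among 6 genes of the leukocyte surface and cytoskeleton, 5 were called higher in the 4-array comparison. Ptprc encodes CD45, the phosphatase on the surface of all leukocytes. It read -2.05 and -1.82 on heart 1 and 3, -3.88 and -4.28 on tail 2 and 3, -2.11 on heart 2 and -1.98 on tail 1. Heart 2 and tail 1 thus sat with heart 1 and 3, and all 4 lay above tail 2 and tail 3. The difference over 4 arrays was 2.15 (SE 0.21, adjusted p = 0.00603), or 4.43-fold, but Ptprc was not well above background on tail 3. Cd52, a short glycopeptide anchored on lymphocytes and myeloid cells, read 2.70 and 4.02 on heart 1 and 3, 0.41 and -0.22 on tail 2 and 3, 2.54 on heart 2 and 3.61 on tail 1. Heart 2 was again close to heart 1, and the difference was 3.26 (SE 0.50, adjusted p = 0.0205), but it was not called without tail 3 (adjusted p = 0.0586). Cd53, a leukocyte tetraspanin, read -1.20 and -1.64 on heart 1 and 3 and -3.50 and -4.56 on tail 2 and 3, with heart 2 at -1.06 and tail 1 at -1.42. Cd53 too was not well above background on tail 3. Its difference of 2.61 (SE 0.41, adjusted p = 0.0207) was not called without heart 1 (0.0763) or without heart 3 (0.0673).

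Laptm5, a lysosomal membrane protein of blood cells, differed by 1.91 (SE 0.34, adjusted p = 0.0304), and its other probe by 1.77. Lcp1, the leukocyte actin bundler L-plastin, differed by 1.51 (SE 0.28, adjusted p = 0.0344), and its other probe by 1.27, while its spot on heart 2 was left out as an outlier. Both were the least secure calls of the role: Laptm5 was lost without heart 1, heart 3 or tail 3, and Lcp1 without heart 3, tail 2 or tail 3. Coro1a, an actin regulator of leukocytes, read 2.72 and 3.38 on heart 1 and 3 and 1.97 and 1.16 on tail 2 and 3, a difference of 1.48 that was not called (SE 0.38, adjusted p = 0.0754).

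Of 9 macrophage receptors and lineage regulators, 6 were called higher. Ms4a7, a membrane protein of the CD20 family found on macrophages, had the largest difference of any member. It read 2.68 and 3.31 on heart 1 and 3, -1.91 and -2.18 on tail 2 and 3, 3.03 on tail 1 and -1.24 on heart 2. Tail 1 thus fell between heart 1 and 3, and heart 2 fell nearer tail 2 and tail 3. The difference over 4 arrays was 5.04 (SE 0.27, adjusted p = 0.00142), or 32.9-fold. By label it was 1.94, with the groups overlapping. Aif1, the calcium-binding protein IBA1 used to stain macrophages and microglia, read 1.30 and 2.35 on heart 1 and 3, -2.24 and -3.26 on tail 2 and 3, 2.10 on tail 1 and -0.59 on heart 2. Heart 2 lay between the heart and the tail arrays for this gene. Its difference was 4.57 (SE 0.51, adjusted p = 0.00831), 23.8-fold, and by label it was 2.15, the largest labelled difference among members.

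Cx3cr1, the fractalkine receptor of monocytes and resident macrophages, read 0.13 and 1.70 on heart 1 and 3, -2.22 and -3.04 on tail 2 and 3, 1.37 on tail 1 and -1.0 on heart 2. The difference was 3.55 (SE 0.60, adjusted p = 0.0267), or 11.7-fold. A dimmer Cx3cr1 probe was not well above background on tail 2 and 3 and was at least 5.18-fold higher in heart 1 and 3. It is the only member probe in the authors' deposited table, where its log2 fold change of heart over tail is 4.52, or 22.9-fold. On the log2 scale and with no bound, the same probe was 4.24 higher in heart 1 and 3 than in tail 2 and 3. The call was lost without heart 3 (adjusted p = 0.0517) and without tail 3 (0.0706). Clec4n, the C-type lectin Dectin-2 that recognises fungal mannans, read 1.41 and 1.17 on heart 1 and 3 and -1.97 and -2.36 on tail 2 and 3, a difference of 3.46 (SE 0.21, adjusted p = 0.00177). Tail 1 read 0.88, a little below both heart arrays, and heart 2 read -1.06. Mrc1, the mannose receptor CD206, read 0.27 and 0.49 on heart 1 and 3, -1.96 and -2.28 on tail 2 and 3, 0.33 on tail 1 and -2.83 on heart 2. Heart 2 was the lowest array of all for Mrc1, and the difference over 4 arrays was 2.50 (SE 0.19, adjusted p = 0.00313).

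Trem2, a lipid-sensing receptor that signals through Tyrobp, read 3.25 and 3.45 on heart 1 and 3 and 2.10 and 1.43 on tail 2 and 3, with tail 1 at 3.06 and heart 2 at -0.42. Its difference over 4 arrays was 1.59 (SE 0.27, adjusted p = 0.0266), not called without heart 1 (0.0673), heart 3 (0.0911) or tail 3 (0.113). By label it was -0.10, so its direction turned with the grouping. Csf1r, the receptor that macrophages need to survive, read 4.28 and 5.20 on heart 1 and 3, 4.89 and 4.22 on tail 2 and 3, 4.78 on tail 1 and 2.44 on heart 2. The 4 arrays overlapped completely, the difference was 0.19 (SE 0.40, adjusted p = 0.788), and the other Csf1r probes differed by 0.50 and -0.084. The sign of the Csf1r difference turned without heart 3 (-0.27) and without tail 3 (-0.14).

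Adgre1, an adhesion receptor long used to mark mouse macrophages, read 1.04 and 1.58 on heart 1 and 3 and 0.34 and -0.49 on tail 2 and 3, and its difference of 1.39 was not called (SE 0.36, adjusted p = 0.0788). A second probe differed by 1.34. Spi1 read -4.27 and -3.58 on heart 1 and 3 and -4.83 and -6.09 on tail 2 and 3, where it was not well above background. Against a floor for those arrays, set by the dimmest spot that was well above background, it was at least 1.34-fold higher in heart 1 and 3, and the difference was not called (adjusted p = 0.131).

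**Figure D2:**
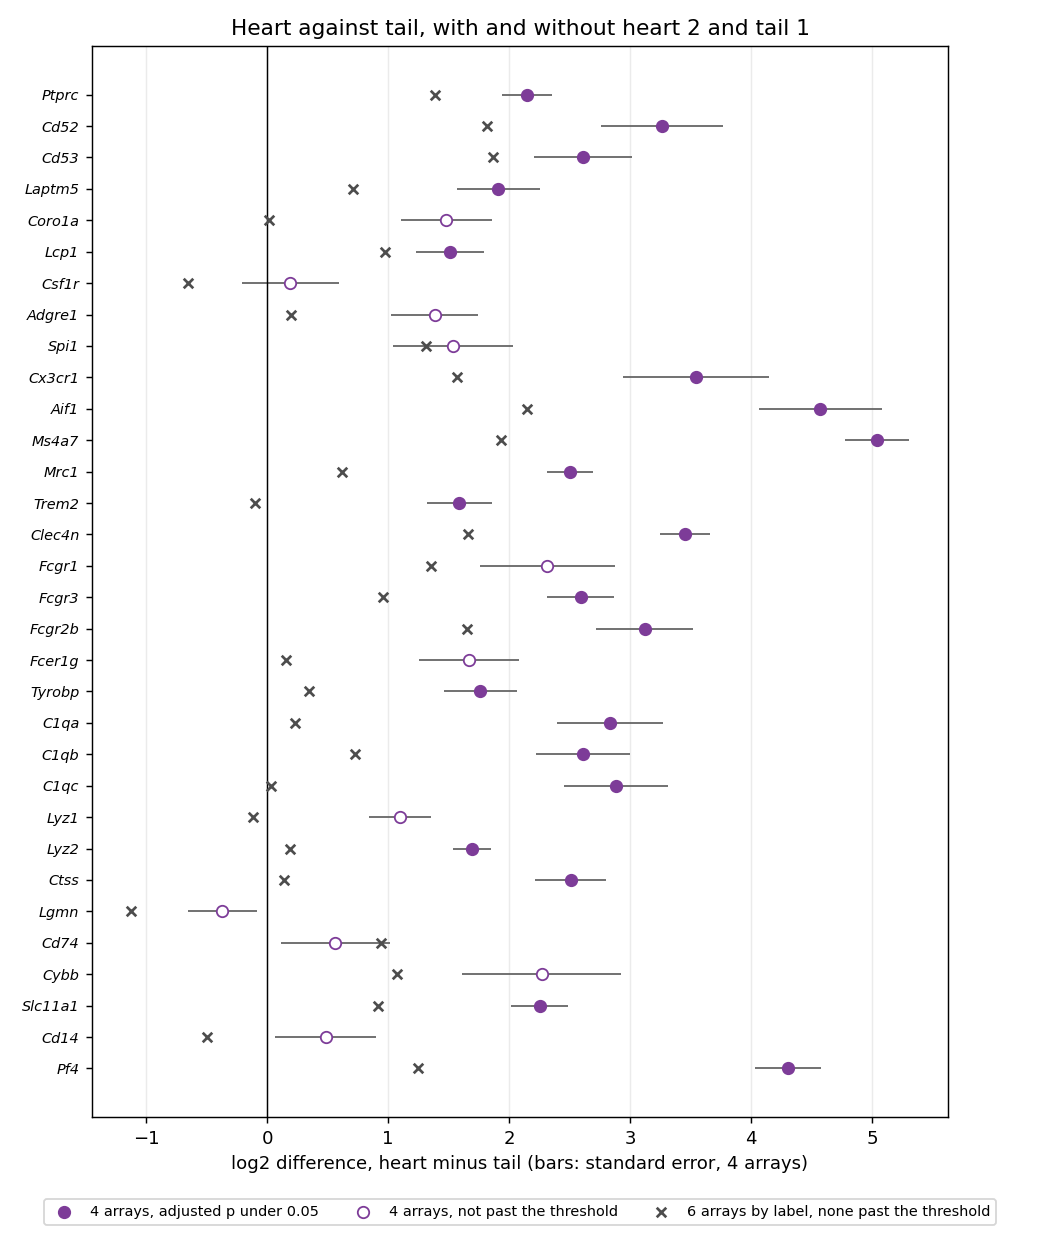
Log2 difference of heart over tail for each member, over the 4 arrays heart 1, heart 3, tail 2 and tail 3 (with a bar of 1 SE either side) and over all 6 arrays by label, grouped by role. The 4-array differences run from -0.37 (Lgmn) to 5.04 (Ms4a7), and 21 of the 32 were called.

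Of 5 Fc receptor and adaptor genes, 3 were called higher. Fc receptors bind antibody on a target and signal through adaptors with an activation motif. Fcgr2b, the inhibitory receptor for IgG, read -1.55 and -0.88 on heart 1 and 3, -3.88 and -4.80 on tail 2 and 3, -1.11 on tail 1 and -2.39 on heart 2. That is a difference of 3.12 (SE 0.40, adjusted p = 0.0124), not called without heart 3 (0.0582). Fcgr3, an activating receptor for IgG, read -0.16 and 0.15 on heart 1 and 3 and -2.28 and -2.92 on tail 2 and 3, a difference of 2.59 (SE 0.27, adjusted p = 0.00733). Fcgr1, the high-affinity receptor, had both heart arrays above both tail arrays and a difference of 2.32, but a wider error (SE 0.56, adjusted p = 0.0661). Neither Fcgr2b nor Fcgr1 was well above background on tail 3.

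The adaptor Tyrobp (DAP12) read 3.46 and 3.90 on heart 1 and 3, 2.25 and 1.59 on tail 2 and 3, 3.66 on tail 1 and 1.18 on heart 2. The difference was 1.76 (SE 0.30, adjusted p = 0.0267), and the call was lost without heart 3 (0.0866) and without tail 3 (0.105). The other adaptor, Fcer1g, the shared gamma chain, read 3.40 and 4.27 on heart 1 and 3 and 2.56 and 1.76 on tail 2 and 3. Its arrays separated in the same way, but the difference of 1.67 was not called (SE 0.41, adjusted p = 0.0714).

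All 3 chains of complement C1q, the recognition molecule of the classical complement pathway that macrophages secrete, were called higher. C1qa, C1qc and C1qb lie side by side on chromosome 4, with no other RefSeq gene starting between them. C1qa read 2.49 and 3.53 on heart 1 and 3, 0.52 and -0.17 on tail 2 and 3, 3.18 on tail 1 and -1.79 on heart 2. C1qb read 2.10 and 3.00 on heart 1 and 3, 0.26 and -0.38 on tail 2 and 3, 2.54 on tail 1 and -0.49 on heart 2. C1qc read 3.11 and 4.08 on heart 1 and 3, 1.09 and 0.33 on tail 2 and 3, 3.69 on tail 1 and -1.98 on heart 2. For every chain heart 3 was the highest array, tail 1 lay between heart 3 and heart 1, and heart 2 was the lowest of all. The differences were alike: 2.84 for C1qa (SE 0.44, adjusted p = 0.0205), 2.61 for C1qb (SE 0.39, adjusted p = 0.0188) and 2.88 for C1qc (SE 0.43, adjusted p = 0.0188). None of the 3 calls held without heart 3 (adjusted p 0.0528 to 0.0561) or without tail 3 (0.0529 to 0.0604), although the differences stayed between 2.16 and 2.50.

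Among 7 genes of lysozyme, the endosome and killing, 3 were called higher. Ctss, the cathepsin that trims the invariant chain in antigen-presenting cells, read 4.52 and 4.90 on heart 1 and 3, 2.54 and 1.87 on tail 2 and 3, 4.66 on tail 1 and 0.06 on heart 2. The difference was 2.51 (SE 0.29, adjusted p = 0.00938), and without heart 3 the adjusted p was 0.0514. Slc11a1, the phagosomal metal transporter NRAMP1, read 1.25 and 0.79 on heart 1 and 3 and -1.08 and -1.39 on tail 2 and 3, a difference of 2.25 (SE 0.23, adjusted p = 0.00694). It was among the few members at which heart 1 exceeded heart 3.

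Lyz2, the lysozyme of macrophages, read 2.63 and 2.60 on heart 1 and 3, 1.03 and 0.82 on tail 2 and 3, 2.45 on tail 1 and -0.37 on heart 2. Its difference was 1.69 (SE 0.16, adjusted p = 0.00523), with an adjusted p of 0.0558 without tail 3. The near copy Lyz1 read 5.24 and 5.34 on heart 1 and 3 and 4.51 and 3.87 on tail 2 and 3, a difference of 1.1 that was not called (SE 0.26, adjusted p = 0.0603). Whether each lysozyme probe reads only its own transcript was not tested.

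Lgmn, the lysosomal endopeptidase legumain, was the only member with a negative difference. It read 5.45 and 6.20 on heart 1 and 3, 6.20 and 6.20 on tail 2 and 3, 6.12 on tail 1 and 3.48 on heart 2. Heart 3, tail 1, tail 2 and tail 3 were nearly level, heart 1 and heart 2 were lower, and the difference of -0.37 (SE 0.29, adjusted p = 0.45) became 0.0054 without heart 1. Cd74, the invariant chain of class II molecules, read -3.22 and -1.94 on heart 1 and 3 and -3.08 and -3.21 on tail 2 and 3, a difference of 0.56 (SE 0.45, adjusted p = 0.464). Only heart 3 stood above the other 3 of these arrays for Cd74, which read 1.20 (adjusted p = 0.0229) without heart 1 and -0.080 without heart 3. Cybb, the catalytic subunit of the phagocyte NADPH oxidase, had both heart arrays above both tail arrays with a difference of 2.27, but tail 2 at -3.50 and tail 3 at -5.31 were far apart (SE 0.66, adjusted p = 0.102). Its signal on tail 3 was not well above background.

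The last pair was the LPS co-receptor Cd14 and the chemokine Pf4. Pf4 (CXCL4), stored in platelet granules and also made by macrophages, read 4.19 and 4.16 on heart 1 and 3, 0.22 and -0.48 on tail 2 and 3, 3.96 on tail 1 and -0.91 on heart 2. Heart 1 and heart 3 were nearly level, and the difference was 4.30 (SE 0.27, adjusted p = 0.00208), or 19.8-fold. Cd14 read 1.17 and 2.25 on heart 1 and 3 and 1.47 and 0.99 on tail 2 and 3. These overlapped, with a difference of 0.48 (SE 0.42, adjusted p = 0.493) that turned to -0.055 without heart 3.

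The 21 calls were not equally firm. Ptprc, Aif1, Ms4a7, Mrc1, Clec4n, Fcgr3, Slc11a1 and Pf4 (8 of 21) stayed past the threshold in each alternative run for them that kept a filter on dim probes, the omission of each of the 4 arrays included. These were 11 alternatives and for Ptprc 10, since it did not pass the filter that asks for signal above background on all arrays. With no filter, 4 of 32 were called: Ms4a7, Mrc1, Clec4n and Pf4. With the slide row as a block 27 were called, and Coro1a, Adgre1, Fcgr1, Fcer1g, Lyz1 and Cybb were gained.

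The arrays labelled tail 1 and heart 2 were then placed against the other 4. Tail 1 was nearer the mean of heart 1 and 3 than that of tail 2 and 3 for 31 of 32 members, with Lgmn the exception, and for all 21 called members. The same held for 98.7% of the 1596 features called higher. For 27 members tail 1 lay between heart 1 and heart 3, and for no called member was it more than 0.48 from their mean. Heart 2 was nearer the tail mean for 16 of the 20 called members it measured and nearer the heart mean for 4. Over all features called higher and measured there, 36.5% of 1527 were nearer the heart mean. Heart 2 read below heart 1 and heart 3 for 28 of 31 members and was the lowest of all 6 arrays for 16. These 2 counts were not taken over all features, and low readings on heart 2 were not particular to the members. The summed linear signal of the fibroblast list was 628.9 on heart 2 and 2820 to 3543 on the other 5 arrays. For a list of lysosomal genes it was 179.7 against 795.7 to 1133. Lists of class II, B cell and mast cell genes summed highest on heart 2. The median member level was 1.75 on heart 1, -0.91 on heart 2, 2.48 on heart 3, 2.28 on tail 1, 0.24 on tail 2 and -0.49 on tail 3.

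Members also moved together within a tissue. Heart 3 exceeded heart 1 for 27 of 32 members by a median of 0.62, while the median over all features was 0.053. Tail 2 exceeded tail 3 for 31 of 32 by a median of 0.67, against 0.023 over all features. Heart 1 and tail 2 lay in the first slide row and heart 3 and tail 3 in the second, so the member median was higher in the second row for heart and in the first for tail.

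**Figure D3:**
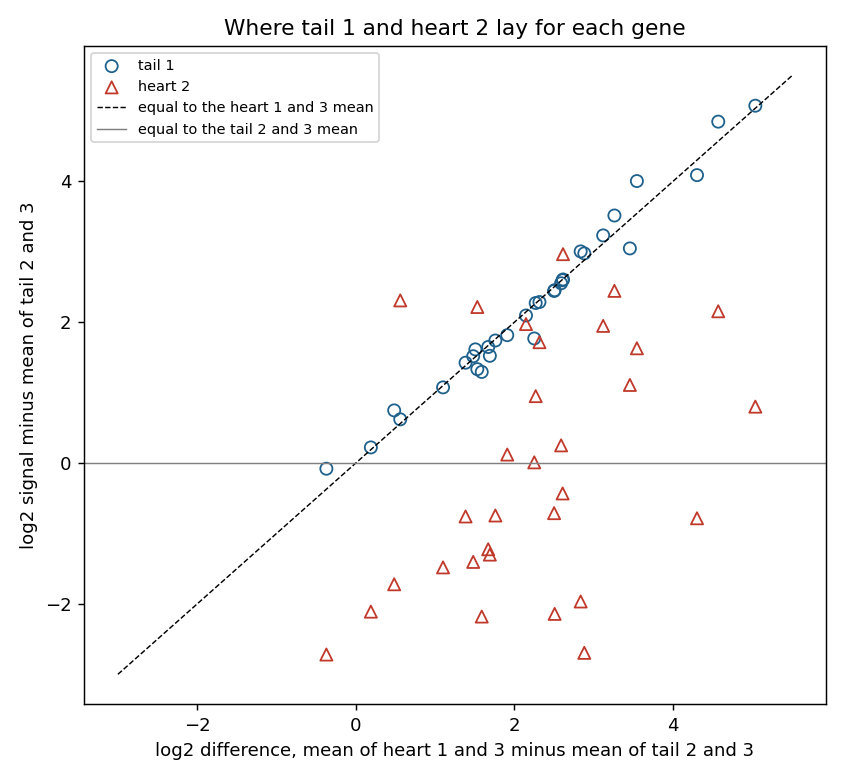
Signal of tail 1 (circles) and heart 2 (triangles) minus the mean of tail 2 and 3 (vertical axis, log2), against the difference of heart 1 and 3 over tail 2 and 3 (horizontal axis, log2), 1 point per member. A point on the dashed line equals the mean of heart 1 and 3, and a point on the grey line equals that of tail 2 and 3. Tail 1 follows the dashed line, while heart 2 falls below it for most members.

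Companion lists of other genes were read in the same 4-array comparison. Integrins and signalling proteins of leukocytes had 7 of 19 called higher and none lower, with a list median of 1.54. Itgax, the integrin CD11c, read 0.45 and 1.20 on heart 1 and 3 and -2.08 and -1.51 on tail 2 and 3 (difference 2.62, SE 0.35, adjusted p = 0.0131). Hcls1, an actin-binding substrate of leukocyte kinases, differed by 2.04, the integrin subunit Itga4 by 1.85 and the actin regulator Nckap1l by 1.71. Without single arrays the calls of Hcls1, Itga4 and Nckap1l were lost, and that of Itgax was not.

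Other macrophage receptors had 6 of 18 called higher and none lower, with a median of 1.08. They included Mertk, a receptor for engulfing dying cells (difference 2.85, SE 0.36, adjusted p = 0.0114). Also called were the IgG receptor Fcgr4 (2.98), the fatty acid receptor Cd36 (1.66) and the complement receptor C3ar1 (1.63), and each of these 3 was lost without at least 1 of the arrays. Fcgr4 was not well above background on tail 3 and passed the filter only through the heart arrays, so its difference was partly set by the filter.

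Transcription factors of the myeloid lineage split, with 4 of 13 called higher and 4 lower, and a median of -0.072. Irf8, which macrophages and dendritic cells need to form, was higher in heart 1 and 3 at 0.77 and 1.48 against -1.49 and -2.09 (difference 2.92, SE 0.34, adjusted p = 0.00944). Fli1, which endothelium also expresses, was higher by 2.05, a call lost without tail 2 or tail 3. Maf was lower by as much as Irf8 was higher, at -1.47 and -0.83 against 1.77 and 1.77 (difference -2.92, SE 0.25, adjusted p = 0.00441). Cebpa, shared by myeloid cells and fat cells, was lower as well (difference -2.33, SE 0.22, adjusted p = 0.00538).

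Genes of resident tissue macrophages, 3 of 8 called higher and 1 lower, did not move as a block. Igf1, a growth factor that fibroblasts also make, was 2.61 higher (SE 0.24, adjusted p = 0.0049). Lyve1, a hyaluronan receptor also found on lymphatic vessels, was not well above background on tail 2 and 3 and was at least 2.32-fold higher in heart 1 and 3 (adjusted p = 0.0311), a call lost without tail 2 and with normexp correction (0.141). The scavenger receptor Stab1 was 1.83 higher, lost without heart 3, tail 2 or tail 3. Cbr2, a carbonyl reductase, was lower in heart 1 and 3, at -0.64 and -0.38 against 2.95 and 3.05 (difference -3.51, SE 0.17, adjusted p = 0.00127). Among monocyte genes 1 of 5 was called, the myeloid gene Plac8, at 4.22 and 5.19 against 0.95 and 0.31 (difference 4.08, SE 0.41, adjusted p = 0.00646). Ly6c1 of the same list, named after its values were seen, read 4.80 and 6.38 on heart 1 and 3 and 7.84 and 7.81 on tail 2 and 3 (difference -2.24, SE 0.54, adjusted p = 0.0676). It was called lower without heart 1 (0.0142), without heart 3 (0.0123), with the slide row as a block (0.00573), with median scaling (0.009) and with the mean of its probes (0.0217).

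Class II and costimulation genes had 4 of 8 called higher and 1 lower. The costimulatory receptor Cd40 read 0.02 and 0.15 on heart 1 and 3 and -2.75 and -3.12 on tail 2 and 3 (difference 3.01, SE 0.19, adjusted p = 0.00208). Cd83 was 2.19 higher and Cd80 1.54 higher, and Cd86, not well above background on tail 2 and 3, was at least 3.70-fold higher (adjusted p = 0.0393). The calls of Cd80 and Cd86 were lost without heart 3 or tail 3. H2-Aa, a class II chain itself, was not well above background except on heart 2.

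Among growth factors and chemoattractants for macrophages, 2 of 10 were called higher and 1 lower. Both ligands of the Csf1r receptor were called, in opposite directions. Il34 read 1.57 and 2.31 on heart 1 and 3 and -1.74 and -1.81 on tail 2 and 3 (difference 3.72, SE 0.28, adjusted p = 0.0031). Csf1 read 6.81 and 6.29 on heart 1 and 3 and 7.74 and 7.69 on tail 2 and 3 (difference -1.17, SE 0.22, adjusted p = 0.0364), and this call was lost without tail 2 or tail 3 and with quantile (0.0628) or loess (0.0501) normalization. The monocyte attractant Ccl12 was 3.29 higher (adjusted p = 0.0481), a call lost without heart 3, tail 2 or tail 3 and with quantile (0.0547) or loess (0.0501) normalization.

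Lysosomal genes outside the member list had 2 of 17 called higher and a median of 0.023, and all 17 were well above background on the 4 arrays. They were Ctsc, the cathepsin that activates serine proteases of leukocytes (difference 2.82, SE 0.35, adjusted p = 0.0108), and the acid lipase Lipa (0.95), the latter lost without tail 2 or tail 3. Genes of osteoclasts, multinucleate relatives of macrophages, had 3 of 8 called higher and 1 lower. Acp5, the tartrate-resistant acid phosphatase, was 2.01 higher and the integrin subunit Itgb3 2.11 higher. The proton pump subunit Atp6v0d2, not well above background on tail 2 and 3, was at least 3.57-fold higher. Ctsk, the collagen-degrading cathepsin that fibroblasts also make, was lower (difference -1.15, SE 0.16, adjusted p = 0.0162). The Acp5 call was lost without tail 3 and the Ctsk call without tail 2 or tail 3.

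**Figure D4:**
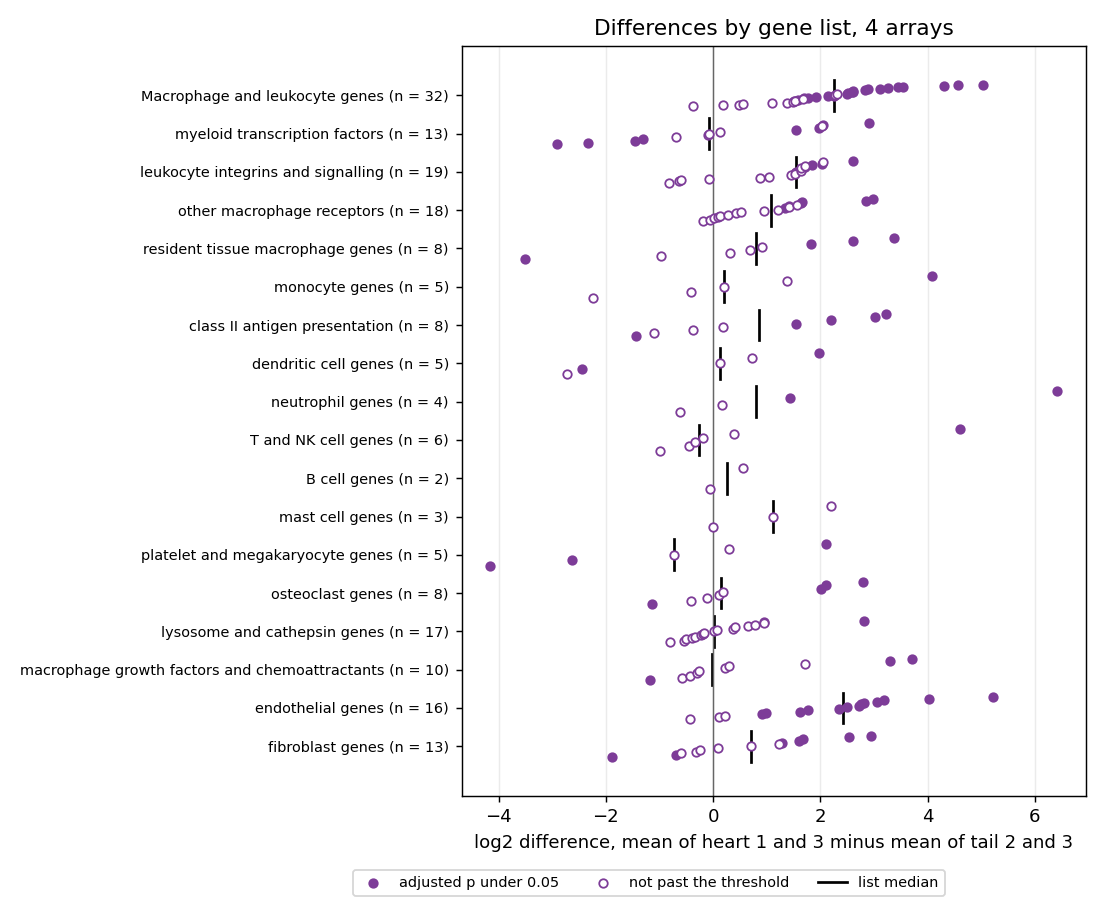
Log2 difference of heart 1 and 3 over tail 2 and 3 for every tested gene of the member list and the 17 companion lists, 1 point per gene, with called genes filled and the list median as a bar. The member list has a median of 2.26 and the endothelial list 2.42 (1.33 with dim genes at their bounds), while the lysosomal and myeloid transcription factor lists have medians of 0.023 and -0.072.

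Markers of other cell types were read beside the members. Of 17 endothelial genes 16 were tested and 13 were called higher. The list median was 2.42 as fitted, and 1.33 with the 5 genes not well above background on tail 2 and 3 at their lower bounds, against 2.26 for the members both ways. Cldn5, a tight junction protein, was at least 8.99-fold higher and the vessel receptor Robo4 at least 16.3-fold higher, both not well above background on tail 2 and 3. Icam2 was 9.12-fold higher (lost without heart 3), and Tie1, dim throughout, at least 1.72-fold higher. Pecam1, Kdr and Egfl7, also on the list, were not called (differences 0.22, -0.43 and 0.10). The summed linear signal of 17 endothelial genes, in units of the array's 75th percentile, was 26.6 and 33.6 on heart 1 and 3 and 31.7 and 24.9 on tail 2 and 3. Most of each sum came from the bright probes of Kdr and Egfl7, which gave 20.2 and 24.9 of it on heart 1 and 3 and 30.0 and 23.2 on tail 2 and 3, so the sums say little of the other genes. For 31 members measured on every array the sums were 235.7 and 349.7 on heart 1 and 3 and 166.7 and 132.8 on tail 2 and 3. On tail 2 and 3 the brightest members were Lgmn (6.20 and 6.20 on the log2 scale), Csf1r (4.89 and 4.22) and Lyz1 (4.51 and 3.87). None of these was called, so the member sums also say little of the other members. The part of endothelial or other cells in the members' result was not tested.

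Fibroblast genes went both ways, 5 of 13 called higher and 2 lower. Lum, Fap and Pdgfra were 2.95, 2.54 and 1.68 higher in heart 1 and 3, and Thy1 was lower (difference -1.88, SE 0.16, adjusted p = 0.00383). The Pdgfra call was lost without tail 2 or tail 3. Their summed signal was 2820 and 3543 on heart 1 and 3 and 3160 and 2903 on tail 2 and 3.

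Markers of other blood cells were dim in part. Of those with a probe, 5 of 15 T and NK cell genes, 6 of 9 B cell genes, 6 of 11 neutrophil genes and 5 of 8 mast cell genes were well above background on none of the 4 arrays. Cd3d, Cd3g, Cd8a and S100a9, defining genes of T cells and neutrophils, and the monocyte receptor Ccr2 were above it on heart 2 alone. Other genes of these lists did not share that pattern: Cd3e and Cd4 were well above background on all 6 arrays, with differences of -0.45 and -0.34 that were not called (adjusted p = 0.305 and 0.302), and S100a8 was above it on heart 1, heart 2, tail 1 and tail 2. None of 2 tested B cell genes or 3 tested mast cell genes was called. Of T and NK cell genes 1 of 6 was called, the costimulatory receptor Cd28, which read 0.22 and -0.27 on heart 1 and 3 and -4.23 and -5.03 on tail 2 and 3 (difference 4.60, SE 0.34, adjusted p = 0.00296). Cd28 was not well above background on tail 3 and passed the filter only through the heart arrays, so its difference was partly set by the filter. Among neutrophil genes 2 of 4 were called, the collagenase Mmp8, at least 20.8-fold higher with tail 2 and 3 not well above background (adjusted p = 0.0015), and Mpo, 1.43 higher (lost without tail 2 or tail 3 and with normexp or quantile normalization). Mpo was not well above background on tail 3 and, like Cd28, passed only through the heart arrays. Dendritic cell genes had Batf3 higher (1.97, lost without heart 3 or tail 2) and Ccr7 lower (difference -2.45, SE 0.15, adjusted p = 0.00172) among 5 tested. Ccr7 was not well above background on heart 3 and passed only through the tail arrays.

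Platelet genes were read because platelets also hold Pf4. Among 5 tested, the integrin subunit Itgb3 was 2.11 higher, while Ppbp, which neighbours Pf4 in the RefSeq annotation, and the platelet integrin Itga2b were called in the other direction. Ppbp read -5.35 and -6.12 on heart 1 and 3, not well above background, and -1.77 and -1.39 on tail 2 and 3, a level at least 8.86-fold higher in the tail pair (adjusted p = 0.00313). For Itga2b the tail pair was higher by at least 4.56-fold (adjusted p = 0.00163). The Pf4 difference of 4.30 had the same direction as that of Itgb3 and the opposite direction to those of Ppbp and Itga2b. Which cells gave the Pf4 signal was not tested.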

How the data were processed

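Intensities of single spots were deposited, read from scans with version 11.0.1.1 of Agilent Feature Extraction, which took off the background and left the arrays unscaled, per the file headers. For 433 probes a table deposited by the authors lists how heart compared with tail, as log2 and as a linear ratio (fold), with no word on its normalization. Flags of other kinds deposited with each spot (0 or 1) mark saturation, outliers and whether it rose well above background.

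From the 59305 spots (55681 probes) of each array, outlier spots were left out, the 75th percentile of the array was subtracted from log2 processed signal, and spots of a probe were averaged. A probe was kept if at least 1 group had it well above background on each array. RefSeq accessions named 27235 probes through a GRCm38.p6 gene table, and the headers name mm9. The brightest probe by mean stood for a gene. Differences were tested with limma 3.58.1 (lmFit, eBayes; R 4.3.3) in two-sided tests, and called where the Benjamini-Hochberg adjusted p was under 0.05, over all features. The fits were tested on simulated data. Tables and plots used Python 3.11.15, pandas 2.3.3 and matplotlib 3.10.9.

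A bound ("at least") sets each array of a group that is nowhere well above background at its own signal or, if higher, at the dimmest signal that was well above background there. The number of arrays limits the precision. Alternatives were quantile, loess, median and normexp scaling (offset 50), filtering on all arrays or not at all, the mean of a gene's probes, the slide row and the replicate number as blocks, and leaving out each array. All members are described by role. Of each companion list, the called genes with the largest differences are named, up to 4. Others named with values (Col1a1, Pecam1, Kdr, Egfl7, Ly6c1, Cd3e, Cd4, H2-DMa, H2-DMb1, H2-Ab1, H2-Eb1 and dim markers) were chosen after their values were seen. The members, the lists and the 4-array comparison were chosen with earlier results of these data known.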

Additional observations from a re-analysis of the deposited data

How the results depend on the processing

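By label, 0 members were called under each alternative run. A block on the replicate number, a pairing the labels do not state, also called 0 members (120 features in all), with 10 members at an unadjusted p under 0.05. Without tail 1, 12 were at that level. Without heart 1, 239 features were called, no member among them. Deviations of same-numbered cultures from their group means correlated at r = 0.28, 0.32 and -0.39. Those means include heart 2 and tail 1, the arrays that stood apart, so these values cannot show whether the numbers pair cultures. By label, 21 of 32 members changed sign under at least 1 alternative, Trem2 among them: 0.40 with loess, 0.33 without tail 1, and -0.78 to 1.16 over the omission of each array.

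Over 4 arrays, 4 members were called with no filter. The member median was 1.62 with normexp. Leaving out 1 array gave 10 to 22 calls, the lone array left in a group being taken to vary like the others, and changed the sign of Csf1r (-0.27 to 0.65), Lgmn (-0.75 to 0.0054), Cd74 (-0.080 to 1.20) and Cd14 (-0.055 to 1.02). The other alternatives called 18 to 27. The cause of these shifts was not tested. Numbers of arrays, dim spots and the state of heart 2 limit every value.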

Other observations

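Set against the median of the members on the same array, which no scaling of a whole array can move, the members differed from each other in the 4-array comparison. Ms4a7 was 2.80 further up than the median member, Aif1 2.33 and Pf4 2.07, on the log2 scale. Csf1r stood at -2.05 and Lgmn at -2.61 relative to it, Cd14 at -1.75 and Cd74 at -1.68. These values are given without a test.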
